A study of Mus musculus with 8 samples.

Results

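The genes described here are 56 mouse genes of the urea cycle and of amino acid breakdown, taken as a list of names for their pathway. The list was drawn up with earlier results of these data known, though no measured value is part of its rule. All 56 were found among the 52551 rows of the count files, and all 56 had enough counts to be tested, among 8669 tested genes in all. Their transcripts were measured in C57BL/6 livers, from males aged 6 weeks, by QuantSeq, which counts reads from the 3' ends of messenger RNAs. The PiZ/Chop-/- livers (4 libraries) had the PiZ transgene, which encodes human alpha-1 antitrypsin in its misfolding Z form, and lacked Chop, the gene Ddit3. PiZ livers (4 libraries) had the same transgene with Chop intact. The labels give neither the part of Ddit3 that was deleted, nor the cells it was deleted in, nor whether libraries stand for separate mice, so p-values speak only of the spread from library to library. Wild-type livers, named in the design text, were not analysed here, so each difference is one between PiZ livers with and without CHOP.

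The urea cycle turns ammonia, released when amino acids are broken down, into urea. It runs partly in hepatocyte mitochondria and partly in the cytosol, mostly in hepatocytes near the portal vein. Amino acid breakdown strips nitrogen from each amino acid by aminotransferases, dehydratases or deaminating lyases, and sends the carbon skeleton to glucose, ketone bodies, one-carbon units or the citric acid cycle. Many of these enzymes are made almost solely by hepatocytes and follow glucagon, glucocorticoids and protein intake. CHOP, a transcription factor of the C/EBP family made during stress of the endoplasmic reticulum, binds DNA as a partner of other C/EBP and ATF proteins.

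Total counts ran from 1850275 to 2375907 in PiZ/Chop-/- libraries and from 1650260 to 3064385 in PiZ libraries. Ddit3 had 8, 3, 5 and 9 counts in PiZ/Chop-/- libraries 1 to 4, against 311, 290, 595 and 180 counts in PiZ libraries 1 to 4, which fits the labels. The transgene transcript SERPINA1 also fell (log2 fold change -1.23, adjusted p = 0.00873, edgeR), so the groups differed in more than Ddit3. PiZ libraries 1 and 4 correlated least well with the rest of the PiZ group (mean r of 0.931 and 0.914), and several estimates below are also given without them. PiZ/Chop-/- library 2 correlated least well within its own group (mean r of 0.932), about as low as PiZ library 1. Summed hepatocyte markers spanned 29786 to 39538 CPM (counts scaled to a common library size, the unit of every level below) in PiZ/Chop-/- libraries and 29684 to 40114 CPM in PiZ libraries, so the tissue label held and the groups overlapped. Summed markers of Kupffer cells and macrophages spanned 769 to 909.7 CPM in PiZ/Chop-/- libraries and 989.7 to 1439 CPM in PiZ libraries, with no overlap, though 0 of 12 passed the test (5 at an unadjusted p under 0.05). Endothelial markers spanned 451 to 492 CPM in PiZ/Chop-/- libraries and 328 to 389 CPM in PiZ libraries, also with no overlap and 0 of 10 past the test (1 at an unadjusted p under 0.05). Stellate cell markers spanned 317 to 456 CPM in PiZ/Chop-/- libraries and 432 to 539 CPM in PiZ libraries, with overlap. All 8 tested stellate markers lay below 0 (median log2 fold change -0.34) and 0 passed the test (1 at an unadjusted p under 0.05). Of 6 pancreas markers, Cpa1 and Amy2a5 were at 0 in every library and Prss2, Cel and Pnlip reached at most 1.9 CPM. Cela1 spanned 78.9 to 208 CPM in PiZ/Chop-/- libraries and 94.4 to 165 CPM in PiZ libraries, with overlap. Summed neutrophil markers stood at 88.5 CPM in PiZ/Chop-/- library 2, against 3.72, 6.45 and 7.92 CPM in libraries 1, 3 and 4 of that group. In PiZ libraries they spanned 8.54 to 32.5 CPM. Summed mitochondrial and ribosomal RNA spanned 93330 to 163997 CPM in PiZ/Chop-/- libraries and 70201 to 113623 CPM in PiZ libraries, with overlap. It was highest in PiZ/Chop-/- library 1 and lowest in PiZ library 4, and 0 of 5 tested genes of that list passed the test. The part of these shifts in the values below was not tested. In whole liver, fewer cells of a type and less RNA per cell cannot be told apart.

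No amino acid or urea cycle gene passed the test. At an adjusted p of 0.05 (edgeR's quasi-likelihood test, Benjamini-Hochberg over 8669 genes) 0 of 56 were called, where 1.03% of all tested genes were. The lowest adjusted p was 0.0616, for Uroc1. At an unadjusted p under 0.05 there were 13 of 56 (23.2%), against 13.1% of all tested genes. Of these, 10 were higher in PiZ/Chop-/- livers, where 6.29% of all tested genes were, and 3 lower, where 6.85% were. DESeq2 called 3 (Uroc1, Gcsh and Hao1, all higher) where it called 2.05% of all genes, and limma-voom called 0 where it called 0.692% of all genes. The groups did not overlap for 4 genes (Uroc1, Otc, Kmo and Sardh, all higher in PiZ/Chop-/- livers), which is 7.14% of the 56 against 7.88% of all tested genes (3.66% higher and 4.22% lower). All fold changes are log2 values of PiZ/Chop-/- divided by PiZ, from scaled counts. They lay above 0 for 35 genes and below 0 for 21, where 49.8% of all tested genes lay above 0, with a median of 0.09 and a range from -0.83 (Gpt2) to 1.85 (Gcsh). Over the alternative settings the median ran from 0.03 with plain library size scaling to 0.19 without PiZ library 1, and the genes above 0 from 30 to 41. The median over all tested genes was -0.00157. It was -0.0775 with plain library size scaling and 0.00178 without PiZ library 1.

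The intervals bound how large a difference these libraries could hide. For 41 of the 56 genes (73.2%) the 95% interval of the fold change lay wholly within a 2-fold difference in either direction, against 61.0% of all tested genes. Only Gcsh differed by more than 2-fold in its estimate, 1.79% of the 56 against 4.12% of all tested genes. These genes were also more deeply counted than most, with a median mean level of 214 CPM against 23.1 CPM for all tested genes. Counts from 3' reads are not corrected for transcript length, and levels are compared here only between libraries of 1 gene.

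**Figure D1:**
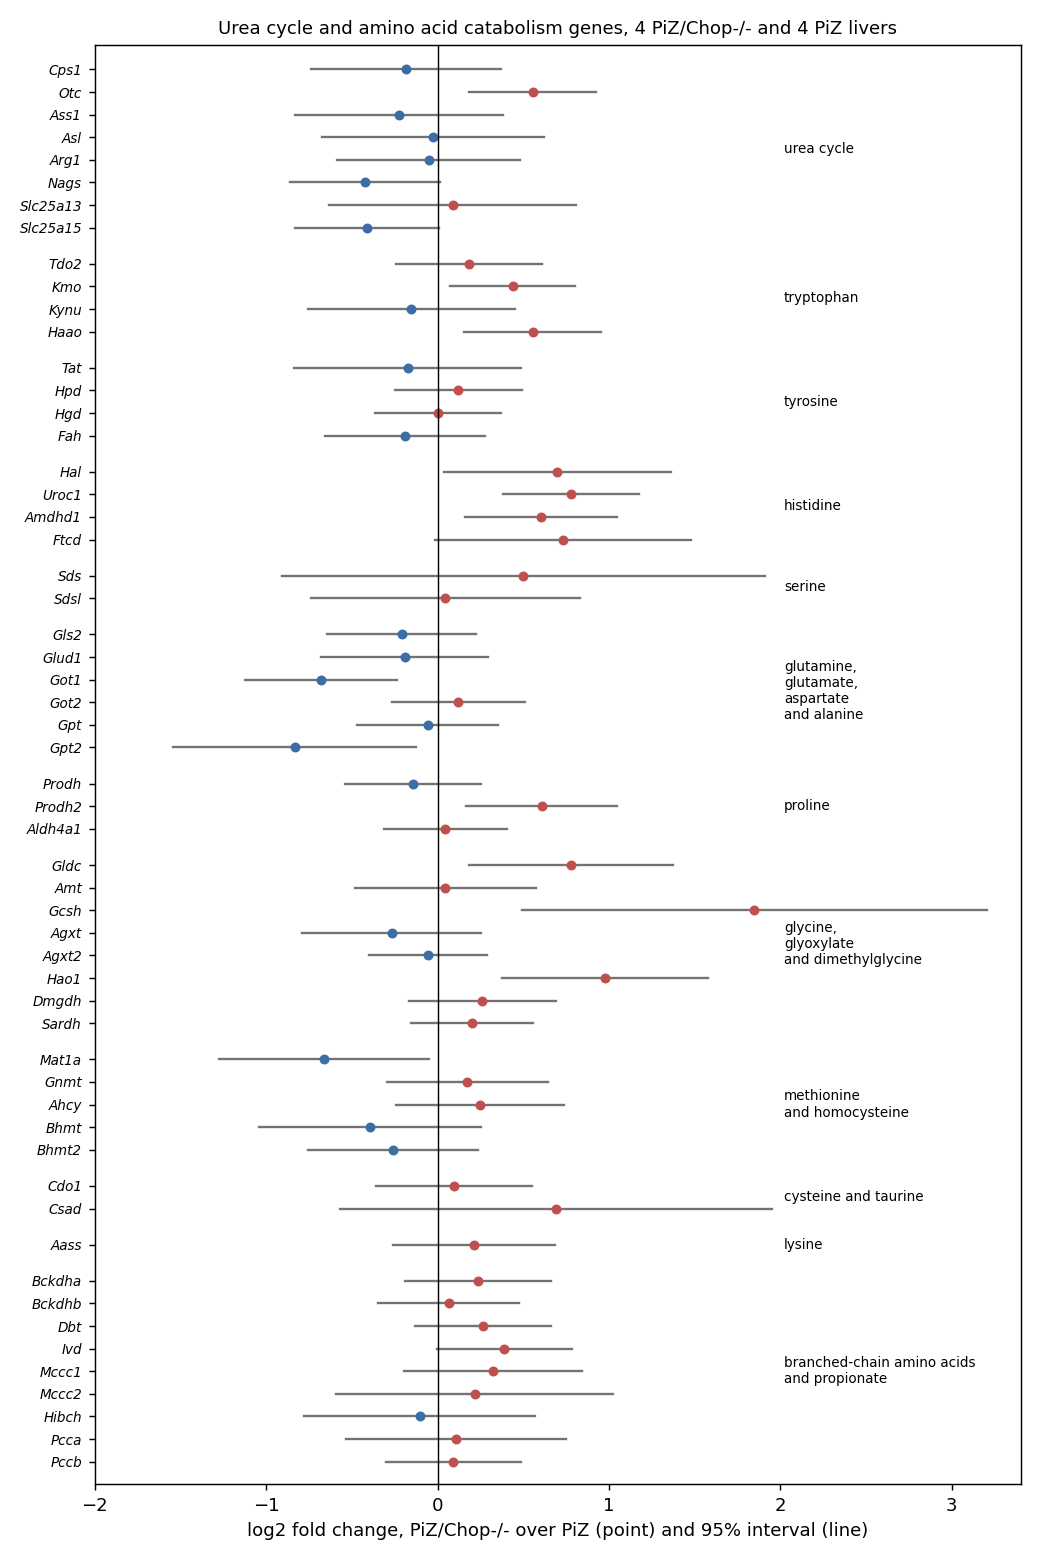
Log2 fold change, PiZ/Chop-/- over PiZ, of the 56 genes grouped by pathway; points are edgeR estimates and bars their 95% intervals. The estimates run from -0.83 (Gpt2) to 1.85 (Gcsh), all 4 histidine genes lie above 0, and no gene reached an adjusted p of 0.05.

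The urea cycle did not move as a block. Of its 8 genes, 2 lay above 0 and 6 below, with a median of -0.12, and 0 were called. Summed over the 8, the level was 3575, 3703, 3041 and 3075 CPM in PiZ/Chop-/- libraries 1 to 4, against 5255, 3321, 3357 and 2436 CPM in PiZ libraries 1 to 4. PiZ libraries 1 and 4 held the highest and the lowest of the 8 sums, so the PiZ/Chop-/- range lay inside the PiZ range.

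Cps1 (chr1:67123026-67231259, plus strand, mm10), which makes carbamoyl phosphate from ammonia in the first step, had 439, 547, 494 and 391 CPM in PiZ/Chop-/- libraries 1 to 4, against 893, 348, 410.3 and 474 CPM in PiZ libraries 1 to 4. PiZ library 1 alone stood high, and the fold change (-0.18, SE 0.26) had an adjusted p of 0.811 (edgeR). Otc (chrX:10252305-10321024, plus strand), which joins carbamoyl phosphate to ornithine to give citrulline, went the other way. It had 308, 289, 276 and 293 CPM in PiZ/Chop-/- libraries, against 174, 224, 168 and 226 CPM in PiZ libraries. Every PiZ/Chop-/- library lay above every PiZ library, at a log2 fold change of 0.56 (SE 0.17, 95% interval 0.18 to 0.93), but the adjusted p was 0.181 (edgeR).

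The 3 cytosolic steps that follow showed one pattern. Ass1, which makes argininosuccinate from citrulline and aspartate, had 1225, 1012, 633 and 765 CPM in PiZ/Chop-/- libraries 1 to 4, against 1652, 1054, 946 and 602 CPM in PiZ libraries 1 to 4. Asl, which splits argininosuccinate into arginine and fumarate, had 166, 259.8, 246 and 248 CPM in PiZ/Chop-/- libraries and 406, 187, 221 and 126 CPM in PiZ libraries. Arg1, which releases urea from arginine, had 621, 702, 678 and 605 CPM in PiZ/Chop-/- libraries and 1067, 598, 651 and 384 CPM in PiZ libraries. In each of the 3 genes PiZ library 1 was the highest of all 8 libraries and PiZ library 4 the lowest, and the PiZ/Chop-/- values lay between them. Their log2 fold changes were -0.23 for Ass1, -0.03 for Asl and -0.05 for Arg1, with adjusted p of 0.787, 0.981 and 0.957 (edgeR). Without PiZ library 1 the estimates were 0.19 for Cps1, 0.07 for Ass1, 0.37 for Asl and 0.26 for Arg1. That 1 library set the sign of Cps1 and Ass1. The estimates of Asl and Arg1 lay near 0 and also turned with all libraries kept, under limma-voom and with a block of the replicate number. Asl also turned, to 0.10, without PiZ/Chop-/- library 1.

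Nags makes N-acetylglutamate, the obligate activator of Cps1, and Slc25a15 carries ornithine into mitochondria. Nags had 55.8, 43.7, 37.2 and 35.9 CPM in PiZ/Chop-/- libraries 1 to 4, against 57.8, 48.6, 60.1 and 64.5 CPM in PiZ libraries 1 to 4 (log2 fold change -0.42, SE 0.21, adjusted p = 0.394, edgeR). Slc25a15 had 286, 402, 281 and 266 CPM in PiZ/Chop-/- libraries, against 495, 328, 402 and 419.5 CPM in PiZ libraries (-0.41, SE 0.20, adjusted p = 0.387). In both genes the groups overlapped, through PiZ/Chop-/- library 1 for Nags and PiZ/Chop-/- library 2 for Slc25a15. The estimate of Slc25a15 was -0.24 without PiZ libraries 1 and 4 together. Slc25a13 encodes citrin, which exports the aspartate that Ass1 uses. It had 473, 448, 396 and 471 CPM in PiZ/Chop-/- libraries, against 511, 533, 499 and 139.5 CPM in PiZ libraries. The log2 fold change was 0.09 with all libraries and -0.19 without PiZ library 4, which stood far below the rest.

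**Figure D2:**
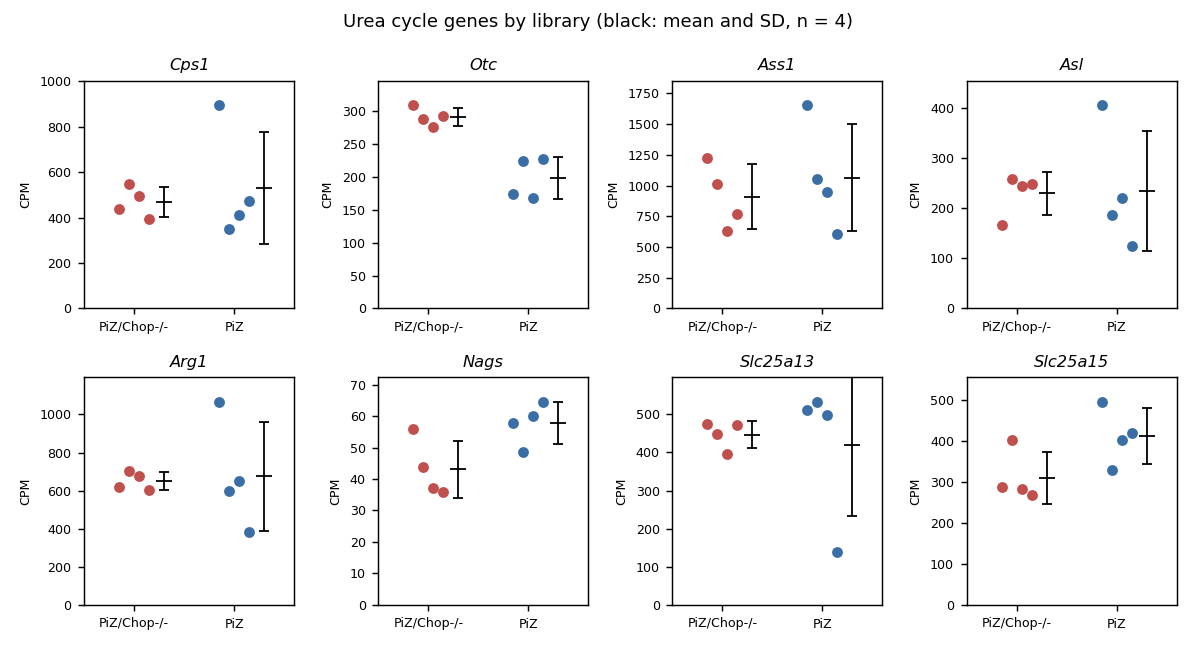
Levels (CPM) of the 8 urea cycle genes in each library, PiZ/Chop-/- left of PiZ, with the group mean and SD. PiZ library 1 is the highest in Cps1, Ass1, Asl, Arg1 and Slc25a15, and PiZ library 4 is the lowest in Ass1, Asl, Arg1 and Slc25a13. Otc is the gene whose groups do not overlap.

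Every gene of the histidine pathway lay above 0, as did those of the smaller serine, cysteine and lysine sets. The 4 genes of the pathway turn histidine into glutamate and a one-carbon unit on tetrahydrofolate, and their summed level was 2898, 2399.6, 1677 and 2443 CPM in PiZ/Chop-/- libraries 1 to 4, against 1813, 1869, 1306 and 732 CPM in PiZ libraries 1 to 4. The median log2 fold change was 0.71, against 0.09 over the 56 genes, and 3 of 4 had an unadjusted p under 0.05. None was called, and PiZ/Chop-/- library 3 lay inside the PiZ range of the sum. The promoters of Hal and Uroc1 are shown because Hal opens the pathway and Uroc1 had the lowest p of the 56: 250 bases before to 50 after the start, from RefSeq on GRCm38.p6, with capitals for a match to the C/EBP core TTGCNNAA on either strand. The Hal window is chr10:93488518-93488817 (plus strand), with 1 match 150 bases before the start, and the Uroc1 window is chr6:90333039-90333338 (plus strand), with 0 matches.
Hal: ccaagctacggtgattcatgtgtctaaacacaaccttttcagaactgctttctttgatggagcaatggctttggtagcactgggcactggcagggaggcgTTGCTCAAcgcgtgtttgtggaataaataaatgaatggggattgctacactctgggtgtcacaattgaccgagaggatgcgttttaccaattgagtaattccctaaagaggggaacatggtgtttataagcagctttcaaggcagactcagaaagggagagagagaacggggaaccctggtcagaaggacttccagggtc
Uroc1: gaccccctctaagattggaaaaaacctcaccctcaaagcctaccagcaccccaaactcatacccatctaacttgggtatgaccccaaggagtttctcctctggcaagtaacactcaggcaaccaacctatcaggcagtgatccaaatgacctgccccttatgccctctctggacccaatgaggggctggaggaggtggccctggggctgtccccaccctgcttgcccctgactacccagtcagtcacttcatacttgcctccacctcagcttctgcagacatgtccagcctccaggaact

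Hal, histidine ammonia-lyase, takes the nitrogen off histidine as ammonia to give urocanate. It had 703, 539, 373 and 565 CPM in PiZ/Chop-/- libraries 1 to 4, against 585, 319.6, 215 and 226 CPM in PiZ libraries 1 to 4. PiZ library 1 lay above 3 of the 4 PiZ/Chop-/- libraries, and the other 3 PiZ libraries lay below all 4. In edgeR this gave 0.70 (SE 0.31, adjusted p = 0.352), and 1.11 without PiZ library 1.

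Uroc1, urocanate hydratase, acts next. It had 176, 149, 173 and 182 CPM in PiZ/Chop-/- libraries 1 to 4, against 105, 122, 95.8 and 74.5 CPM in PiZ libraries 1 to 4. The groups did not overlap, and the means were 170.1 ± 14.2 CPM in PiZ/Chop-/- livers and 99.2 ± 19.7 CPM in PiZ livers (SD, n = 4 each), a 1.72-fold difference (log2 0.78, SE 0.19, 95% interval 0.38 to 1.17, adjusted p = 0.0616, edgeR). Leaving out PiZ/Chop-/- library 2 gave 0.84 with an adjusted p of 0.0463, and leaving out each other library in turn left it above 0.05.

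The last 2 genes had the same direction. Amdhd1, imidazolonepropionase, had 134, 109.8, 101 and 115 CPM in PiZ/Chop-/- libraries 1 to 4, against 101, 55.9, 61.7 and 84.5 CPM in PiZ libraries 1 to 4 (log2 fold change 0.60, SE 0.21, adjusted p = 0.229, edgeR). Ftcd, which passes the formimino group to tetrahydrofolate, had 1885, 1602, 1029.6 and 1581 CPM in PiZ/Chop-/- libraries, against 1022, 1371, 933 and 347 CPM in PiZ libraries (0.73, SE 0.34, adjusted p = 0.389), and the estimate was 0.48 without PiZ library 4. PiZ library 4 was the lowest of the 8 in Ftcd and Uroc1, and PiZ library 1 the highest of the PiZ group in Hal and Amdhd1. Leaving out PiZ libraries 1 and 4 together gave 0.97 for Amdhd1 with an adjusted p of 0.0283, and 0.40 for Ftcd. Hal and Amdhd1 are neighbours on chromosome 10 (chr10:93488768-93519304, plus strand, and chr10:93523338-93540033, minus strand). Their annotated spans do not overlap.

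Tryptophan breakdown along the kynurenine route gave 3 of 4 genes above 0, with a median of 0.31, and 0 called. Tdo2, which opens the indole ring, had 995, 649, 779 and 878 CPM in PiZ/Chop-/- libraries 1 to 4, against 578, 767, 876 and 687 CPM in PiZ libraries 1 to 4, and the groups overlapped (log2 fold change 0.18, SE 0.20, adjusted p = 0.747, edgeR). Leaving out 1 library gave 0.08 to 0.29, with the lowest values without PiZ/Chop-/- library 1 (0.08) and PiZ library 1 (0.09) and the highest without PiZ/Chop-/- library 2 (0.29) and PiZ library 3 (0.28), and 0.01 remained without PiZ libraries 1 and 4. The next gene of the route in this set had groups apart from each other. Kmo, kynurenine 3-monooxygenase, had 207, 221, 197 and 202 CPM in PiZ/Chop-/- libraries, against 149, 182, 154 and 126 CPM in PiZ libraries, with no overlap (0.44, SE 0.17, adjusted p = 0.293). Haao, which acts on 3-hydroxyanthranilate, had 375, 413, 265 and 419.7 CPM in PiZ/Chop-/- libraries, against 233, 273, 255 and 242 CPM in PiZ libraries (0.55, SE 0.19, adjusted p = 0.216). Only PiZ/Chop-/- library 3 lay within the PiZ range there. Kynu, kynureninase, which acts between Kmo and Haao, had a log2 fold change of -0.15 (adjusted p = 0.868), and 0.08 without PiZ library 4.

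No gene of tyrosine breakdown passed the test. Tat, tyrosine aminotransferase, an enzyme long used as a readout of glucocorticoid action in liver, had 56.7, 103, 74.0 and 85.7 CPM in PiZ/Chop-/- libraries 1 to 4, against 108, 37.4, 94.5 and 120.1 CPM in PiZ libraries 1 to 4. The range over PiZ libraries enclosed the PiZ/Chop-/- range, and the estimate was -0.18 (SE 0.31, adjusted p = 0.859, edgeR) with all libraries and 0.01 without PiZ library 4. Hpd, Hgd and Fah, which carry tyrosine on to fumarate and acetoacetate, had log2 fold changes of 0.12, 0.00 and -0.19. Hgd averaged 332 ± 29.2 CPM in PiZ/Chop-/- livers and 332 ± 37.3 CPM in PiZ livers (SD, n = 4 each), with a 95% interval of the log2 fold change from -0.36 to 0.37.

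The genes that move nitrogen between glutamine, glutamate, aspartate and alanine leaned lower, with 5 of 6 below 0, a median of -0.20 and 0 called. Summed, they gave 1756, 2001, 1878 and 1833 CPM in PiZ/Chop-/- libraries 1 to 4, against 2249, 1810.0, 1929 and 2812 CPM in PiZ libraries 1 to 4, where PiZ libraries 1 and 4 lay above all 4 PiZ/Chop-/- libraries and PiZ library 2 below 3 of them. Got1, cytosolic aspartate aminotransferase, had the lowest p among genes with a lower mean in PiZ/Chop-/- livers. Its promoter window (chr19:43524556-43524855, minus strand) holds 1 match, on the opposite strand and 102 bases before the start, to the amino acid response element TGATGNAA, the kind of site that ATF4 and C/EBP proteins are known to bind, and is shown for that reason with the match in capitals.
Got1: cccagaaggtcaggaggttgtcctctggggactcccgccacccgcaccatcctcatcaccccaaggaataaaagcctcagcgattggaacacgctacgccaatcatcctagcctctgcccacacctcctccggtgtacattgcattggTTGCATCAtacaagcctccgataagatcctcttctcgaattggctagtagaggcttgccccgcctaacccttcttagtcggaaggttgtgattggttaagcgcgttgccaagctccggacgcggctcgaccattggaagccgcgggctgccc

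Got1 had 138, 183, 175 and 163 CPM in PiZ/Chop-/- libraries 1 to 4, against 350.0, 182, 239 and 287 CPM in PiZ libraries 1 to 4. All but PiZ library 2 lay above the PiZ/Chop-/- range. The means were 165 ± 19.6 CPM in PiZ/Chop-/- livers and 264 ± 71.5 CPM in PiZ livers (SD, n = 4 each), at a log2 fold change of -0.68 (SE 0.21, 95% interval -1.12 to -0.24, adjusted p = 0.165, edgeR). Without PiZ libraries 1 and 4 together, its highest, the estimate was -0.35. Its mitochondrial counterpart Got2 had a log2 fold change of 0.12 (adjusted p = 0.822).

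Of the 2 alanine aminotransferases, Gpt2, the mitochondrial form, had 189, 203, 169.8 and 187 CPM in PiZ/Chop-/- libraries 1 to 4, against 172, 236, 307 and 619 CPM in PiZ libraries 1 to 4. Its fold change of -0.83 (SE 0.33, adjusted p = 0.304, edgeR) became -0.33 without PiZ library 4, whose value was the highest by far. Gpt, the cytosolic form, had 141, 160.4, 199.6 and 248 CPM in PiZ/Chop-/- libraries and 193, 199, 182 and 206 CPM in PiZ libraries (-0.06, SE 0.19, adjusted p = 0.931). Here the PiZ/Chop-/- libraries were the more spread and enclosed the PiZ values. The sign turned without PiZ/Chop-/- library 1 (0.06) and without PiZ/Chop-/- library 2 (0.01).

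Gls2 and Glud1 release ammonia, from glutamine and from glutamate, within liver mitochondria. Gls2 had 149.6, 155, 138 and 135 CPM in PiZ/Chop-/- libraries 1 to 4, against 216, 137, 118 and 197 CPM in PiZ libraries 1 to 4 (log2 fold change -0.21, SE 0.20, adjusted p = 0.707, edgeR). Glud1 had 599, 836, 692 and 609 CPM in PiZ/Chop-/- libraries, against 788, 564, 629 and 1144 CPM in PiZ libraries (-0.19, SE 0.23, adjusted p = 0.775). The groups overlapped in both, and Glud1 gave 0.07 without PiZ library 4. Gls2 gave -0.06 without PiZ library 1 and -0.10 without PiZ library 4, and both genes turned sign without the pair (Gls2 0.18, Glud1 0.20).

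Glycine and glyoxylate genes held the 2 estimates farthest from 0 among the 56, those of Gcsh and Hao1. Of 8, 6 lay above 0 (median 0.23), 3 had an unadjusted p under 0.05 and 0 were called. Their sums were 2920.5, 2375, 1939 and 2439 CPM in PiZ/Chop-/- libraries 1 to 4, against 1840.3, 1926, 1823 and 1791 CPM in PiZ libraries 1 to 4. PiZ/Chop-/- library 3 lay only just above the PiZ range. The promoter of Hao1 is shown because Hao1 had the lowest p of this set and holds both searched motifs (chr2:134554303-134554602, minus strand). In capitals, in order along the sequence, are the match to TGATGNAA, 117 bases before the start, and the match to TTGCNNAA on the opposite strand, 86 bases before it.
Hao1: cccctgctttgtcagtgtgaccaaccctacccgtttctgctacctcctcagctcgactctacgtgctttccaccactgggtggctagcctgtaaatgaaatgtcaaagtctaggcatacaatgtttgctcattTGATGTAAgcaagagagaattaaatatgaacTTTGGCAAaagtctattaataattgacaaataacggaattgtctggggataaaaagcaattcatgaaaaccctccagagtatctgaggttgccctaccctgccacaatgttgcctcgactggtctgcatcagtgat

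Hao1 encodes glycolate oxidase of liver peroxisomes, which makes glyoxylate, the precursor of oxalate. It had 1193, 817, 499 and 710.4 CPM in PiZ/Chop-/- libraries 1 to 4, against 363, 535, 491 and 246 CPM in PiZ libraries 1 to 4. PiZ/Chop-/- library 3 lay below PiZ library 2, and the other 3 lay above all PiZ libraries. The means were 805 ± 291 CPM in PiZ/Chop-/- livers and 409 ± 131 CPM in PiZ livers (SD, n = 4 each), a 1.97-fold difference (log2 0.98, SE 0.28, 95% interval 0.38 to 1.58, adjusted p = 0.136, edgeR). Agxt, which turns glyoxylate back into glycine and so keeps it from becoming oxalate, had 222, 186, 159.9 and 205 CPM in PiZ/Chop-/- libraries, against 220.2, 165, 168 and 378 CPM in PiZ libraries. Its log2 fold change was -0.27 (SE 0.25, adjusted p = 0.693), and 0.08 without PiZ library 4. Agxt2, a mitochondrial aminotransferase, had one of the tightest intervals, -0.40 to 0.29.

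The glycine cleavage system, which splits glycine in mitochondria, was uneven. Gcsh, its lipoyl carrier protein, had 124, 14.4, 67.5 and 107 CPM in PiZ/Chop-/- libraries 1 to 4, against 24.6, 12.6, 19.6 and 30.4 CPM in PiZ libraries 1 to 4. In 3 PiZ/Chop-/- libraries it stood above every PiZ library, and in PiZ/Chop-/- library 2 it stood near the lowest. With all libraries the estimate was 1.85 (SE 0.59, 95% interval 0.49 to 3.20, adjusted p = 0.251, edgeR). Without PiZ/Chop-/- library 2 it was 2.19 with an adjusted p of 0.00128, a value that leaves out the library that goes against it. Gldc, the glycine-decarboxylating subunit, had 73.9, 56.9, 43.2 and 42.4 CPM in PiZ/Chop-/- libraries and 43.1, 18.5, 24.8 and 40.8 CPM in PiZ libraries, overlapping by 1 library (0.78, SE 0.28, adjusted p = 0.251). Without PiZ libraries 1 and 4 it gave 1.31 with an adjusted p of 0.0378. Amt, the aminomethyltransferase of the same complex, had a log2 fold change of 0.05 (adjusted p = 0.960).

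Dmgdh and Sardh strip methyl groups from dimethylglycine and sarcosine. Sardh had 714, 720.2, 749.6 and 818 CPM in PiZ/Chop-/- libraries 1 to 4, against 653, 676, 641 and 644 CPM in PiZ libraries 1 to 4. These groups did not overlap, yet the difference was small, 1.15-fold (log2 0.20, SE 0.17, adjusted p = 0.655, edgeR). Dmgdh had a log2 fold change of 0.26 (adjusted p = 0.615).

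**Figure D3:**
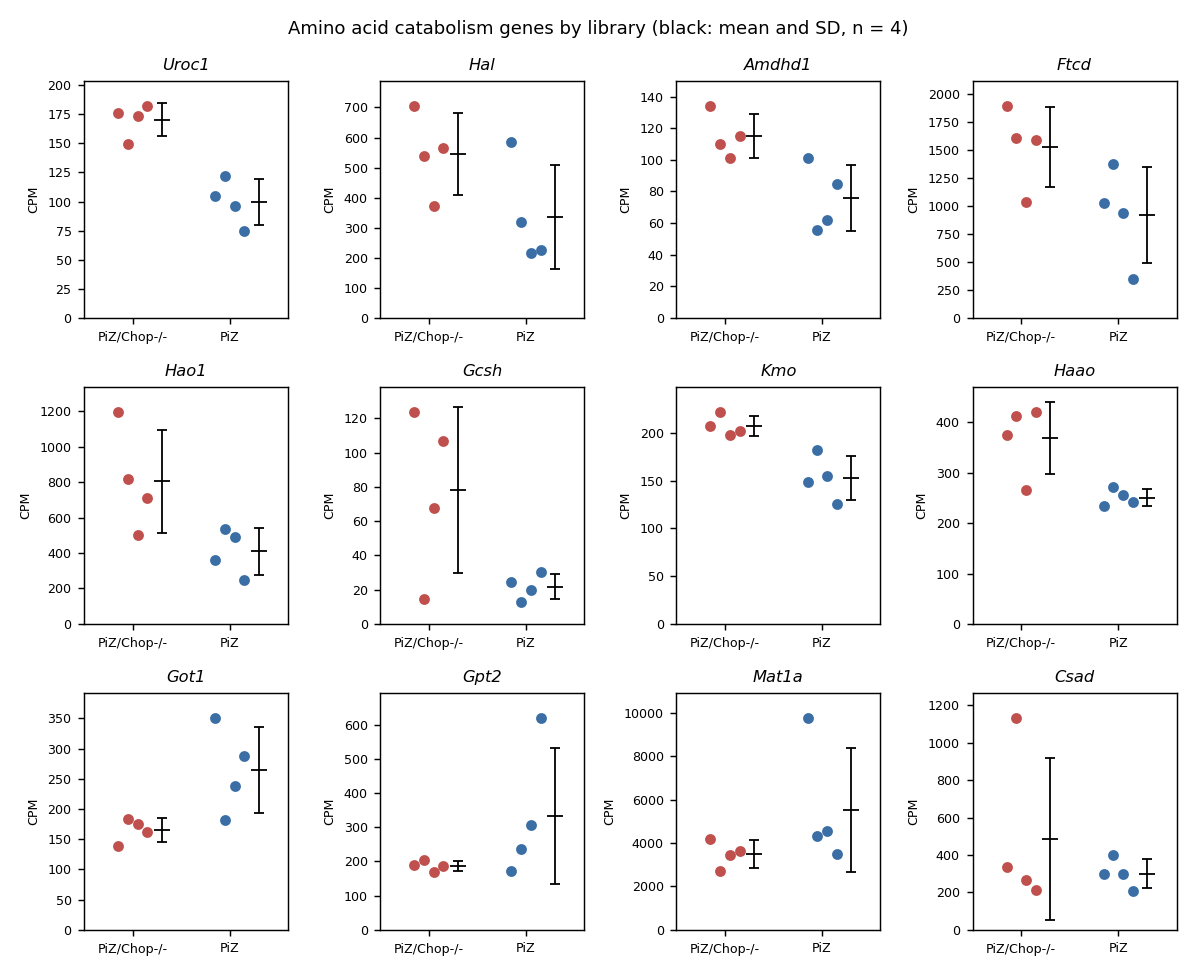
Levels (CPM) of 12 genes of the other pathways in each library, PiZ/Chop-/- left of PiZ, with the group mean and SD. Uroc1 and Kmo show no overlap, Gcsh and Csad are split by PiZ/Chop-/- library 2 (14.4 and 1131 CPM), and Gpt2 and Mat1a by PiZ libraries 4 and 1 (619 and 9750.1 CPM).

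In methionine and homocysteine breakdown 2 of 5 genes lay above 0, with a median of -0.26 and 0 called. Mat1a, the liver enzyme that makes S-adenosylmethionine, had 4207, 2690.5, 3441 and 3646 CPM in PiZ/Chop-/- libraries 1 to 4, against 9750.1, 4326, 4543 and 3514 CPM in PiZ libraries 1 to 4. PiZ library 1 was far above the rest, and PiZ library 4 lay within the PiZ/Chop-/- range. The estimate of -0.66 (SE 0.29, adjusted p = 0.342, edgeR) became -0.24 without PiZ library 1. Bhmt, which remethylates homocysteine with betaine, had 256, 336, 113 and 188 CPM in PiZ/Chop-/- libraries, against 418, 219, 251 and 287 CPM in PiZ libraries (-0.40, SE 0.30, adjusted p = 0.612). Omission of PiZ library 1 moved this to -0.18, that of PiZ/Chop-/- library 2 to -0.66, that of PiZ/Chop-/- library 3 to -0.17, and that of both PiZ libraries 1 and 4 to -0.073. The paralog of Bhmt, Bhmt2, which may share reads with it, had -0.26. Gnmt, which uses S-adenosylmethionine to methylate glycine, had 0.17, and Ahcy, which splits S-adenosylhomocysteine, had 0.25.

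Cysteine breakdown towards taurine starts with Cdo1, cysteine dioxygenase, with an interval of the log2 fold change from -0.36 to 0.55 (estimate 0.10, SE 0.21, adjusted p = 0.893, edgeR). Csad, cysteine sulfinate decarboxylase, had 337, 1131, 265 and 212 CPM in PiZ/Chop-/- libraries 1 to 4, against 299, 401, 297 and 207 CPM in PiZ libraries 1 to 4. PiZ/Chop-/- library 2 stood alone. With it the estimate was 0.69 (SE 0.54, adjusted p = 0.644), and without it -0.14.

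The branched-chain and propionate genes had small differences, mostly of one sign. Of 9, 8 lay above 0, only Hibch (-0.10) lay below, and the median was 0.22, with 0 called and 0 at an unadjusted p under 0.05. The sums were 711, 616, 679.6 and 664 CPM in PiZ/Chop-/- libraries 1 to 4, against 547, 589.7, 609 and 602 CPM in PiZ libraries 1 to 4. With the scaling used here they did not overlap, though PiZ/Chop-/- library 2 lay only just above PiZ library 3. Ivd, which takes the leucine skeleton past isovaleryl-CoA, had the largest estimate (log2 0.39, adjusted p = 0.384, edgeR). Bckdha, Bckdhb and Dbt, subunits of the branched-chain keto acid dehydrogenase, had 0.24, 0.06 and 0.26. Mccc1 and Mccc2 of leucine breakdown had 0.32 and 0.22, and Pcca and Pccb, the subunits of propionyl-CoA carboxylase, 0.11 and 0.09. The 3' end of Pcca lies within Ggact on the opposite strand, whose 977 counts exceed the 327 of Pcca. Without use of strand in the counting, reads of Pcca may be shared with it. Aass, which starts lysine breakdown, had 0.21.

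Prodh2, hydroxyproline dehydrogenase, which feeds glyoxylate production, had 232, 156, 169.8 and 183 CPM in PiZ/Chop-/- libraries 1 to 4, against 94.1, 105, 119.9 and 167 CPM in PiZ libraries 1 to 4. PiZ library 4 lay inside the PiZ/Chop-/- range and the other 3 below it. In edgeR the estimate was 0.61 (SE 0.21, 95% interval 0.17 to 1.05, adjusted p = 0.223), and 0.81 with an adjusted p of 0.0354 without PiZ library 4. Prodh, which acts on proline, had -0.14, and Aldh4a1, which acts in both routes, had 0.04. Sds, serine dehydratase, was thinly counted, with 10.2, 10.3, 21.8 and 27.9 CPM in PiZ/Chop-/- libraries and 4.92, 4.86, 30.2 and 7.12 CPM in PiZ libraries. Its 95% interval of the log2 fold change ran from -0.91 to 1.91, which does not exclude a level more than 2-fold higher in PiZ/Chop-/- livers. The estimate was 0.50 with all libraries and 1.63 without PiZ library 3, and omission of any other single library gave 0.20 to 0.70. The 3' end of Sds lies within Plbd2 on the opposite strand, whose 1693 counts exceed the 271 of Sds, and whether the counting used strand is not stated. Sdsl, a relative of Sds, had 0.05.

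The libraries of the PiZ group varied more than those of the PiZ/Chop-/- group. The median coefficient of variation over the 56 genes was 17.3% in PiZ/Chop-/- livers and 27.7% in PiZ livers, and over all tested genes 23.4% in PiZ/Chop-/- livers and 26.4% in PiZ livers. It was larger in PiZ livers for 38 of 56 genes (67.9%), against 55.7% of all tested genes. PiZ/Chop-/- library 1 held the highest of the 8 values for 16 of the 56 (28.6%, against 13.4% of all tested genes). PiZ library 4 held it for 12 (21.4%, against 21.8%) and PiZ library 1 for 11 (19.6%, against 12.3%). The lowest value was that of PiZ library 4 for 16 (28.6%, against 21.4%) and that of PiZ library 2 for 14 (25%, against 10.9%). The pathways did not share 1 order of libraries: PiZ library 1 stood highest for the urea cycle (median centred log2 level 0.61) but at 0.01 for histidine, where PiZ/Chop-/- library 1 stood at 0.65.

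**Figure D4:**
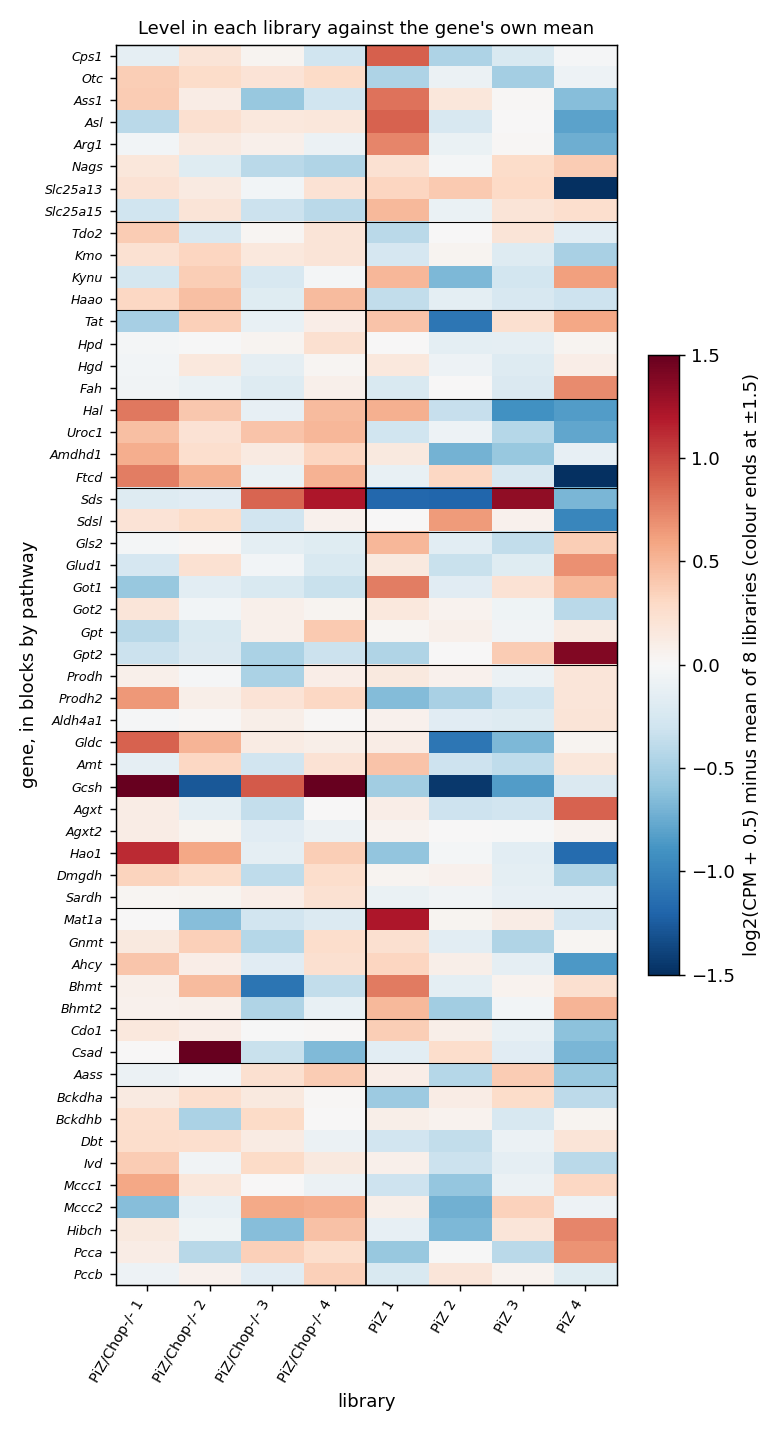
Level of each of the 56 genes in each library as log2(CPM + 0.5) minus the gene's mean over the 8 libraries, PiZ/Chop-/- columns left of PiZ columns, genes grouped by pathway, colours ending at 1.5 in either direction. The histidine rows are mostly above their mean in PiZ/Chop-/- columns. Of the urea cycle rows, PiZ library 1 is the highest in Cps1, Ass1, Asl, Arg1 and Slc25a15 but not in Otc, Nags and Slc25a13.

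**Figure D5:**
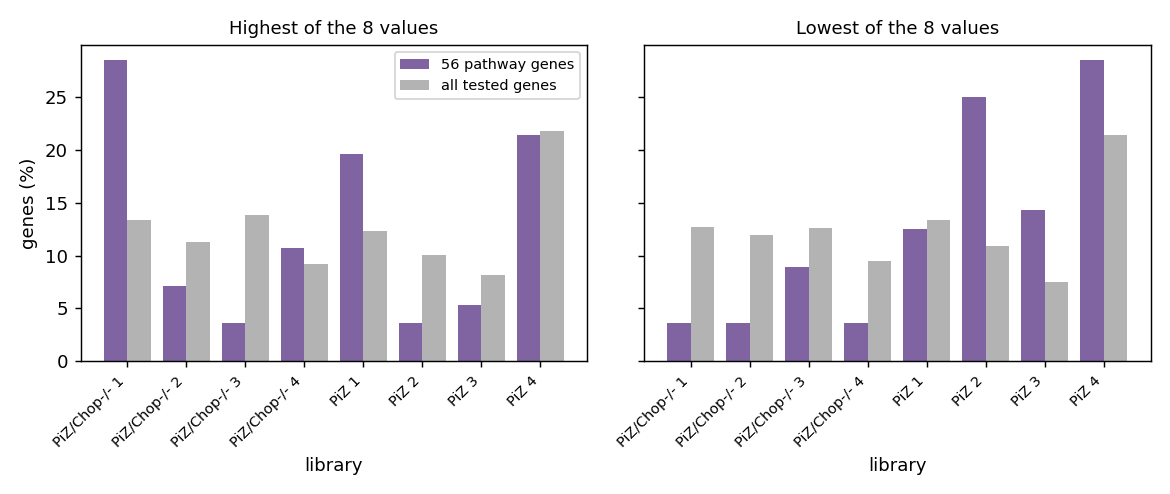
For each library, the percent of the 56 genes, beside that of all tested genes, for which it held the highest or the lowest of the 8 values. PiZ/Chop-/- library 1 is the highest for 28.6% of the 56 and PiZ library 2 the lowest for 25%, both more than 2 times their share over all tested genes.

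The promoter windows of these genes held the searched motifs about as often as any. RefSeq windows were at hand for 45 of the 56 genes (50 windows). The C/EBP core TTGCNNAA, on either strand, was in 12% of their windows and in 10.8% of all 32851 windows, and the genes with a match were Aass, Agxt2, Hal, Hao1, Hgd and Prodh2. The amino acid response element TGATGNAA was in 4.0% of their windows (Got1 and Hao1) and in 3.97% of all. No stretch of 8 bases can match both. A match is a run of letters and was not tested as a binding site.

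Among other amino acid genes of the liver no gene passed the test either. Of 59 listed, 55 had enough counts, 0 passed the test and 34 lay above 0, with a median of 0.14. At an unadjusted p under 0.05 there were 5 of 55 (9.09%), all higher in PiZ/Chop-/- livers, where 6.29% of all tested genes were. In either direction the share was 23.2% of the 56 genes above and 13.1% of all tested genes. The groups did not overlap for 2 (3.64%), both higher in PiZ/Chop-/- livers, against 7.88% of all tested genes (3.66% higher and 4.22% lower). Hykk, the kinase of hydroxylysine breakdown, averaged 39.7 ± 15 CPM in PiZ/Chop-/- livers and 16.5 ± 4.61 CPM in PiZ livers (SD, n = 4 each; log2 1.28, SE 0.31, adjusted p = 0.0648, edgeR), and Dpys of pyrimidine breakdown had 0.54 (adjusted p = 0.226). Hykk was called without PiZ library 4 (1.49, adjusted p = 0.0288) and without PiZ/Chop-/- library 2 (1.51, adjusted p = 0.00831). Of 12 regulators of amino acid breakdown, 0 passed and 9 lay above 0 (median 0.28). The lowest p were those of Gcgr, the glucagon receptor (0.35, adjusted p = 0.413), and Cebpa, a C/EBP factor of hepatocytes (0.39, adjusted p = 0.447).

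Because the urea cycle is periportal and ammonia left over is taken up near the central vein, markers of both zones were set beside it. Of 9 tested periportal markers, 8 lay above 0 (median 0.38) and 1 passed, where 1.03% of all tested genes did. That gene was Pigr, the receptor that carries IgA into bile. It averaged 308 ± 87.1 CPM in PiZ/Chop-/- livers and 130.4 ± 32.1 CPM in PiZ livers (SD, n = 4 each, log2 1.24, adjusted p = 0.0139, edgeR). Its call was lost without PiZ library 3 and without PiZ/Chop-/- library 1 (adjusted p = 0.0634 each). Aldh1b1, the 1 marker below 0, had the next lowest p (log2 -0.65, adjusted p = 0.259, edgeR). The 9 do not include the urea cycle genes, whose median was -0.12. Of 10 tested pericentral markers, 5 lay above 0 (median 0.01) and 2 passed, both lower, where 0.692% of all tested genes passed as lower. At an unadjusted p under 0.05 (edgeR), 3 were lower and 2 higher, Slc1a2 (log2 0.65) and Cyp1a2 (log2 0.67). Glul, also on this list, had 0.25 (adjusted p = 0.608, edgeR). Rhbg, an ammonium transporter of pericentral hepatocytes, averaged 17.1 ± 5.67 CPM in PiZ/Chop-/- livers and 54.5 ± 7.84 CPM in PiZ livers (log2 -1.66, SE 0.26, adjusted p = 0.00353, edgeR). It had 19.98, 8.62, 19.9 and 20.03 CPM in PiZ/Chop-/- libraries 1 to 4, against 44.9, 53.9, 55.0 and 64.1 CPM in PiZ libraries 1 to 4, and no library of one group reached the other. Cyp7a1, the rate-limiting enzyme of bile acid synthesis, fell too (log2 -1.79, adjusted p = 0.000758). The part of zonation in the values of the 56 genes was not tested.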

How the data were processed

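Liver RNA of 8 libraries, 4 PiZ/Chop-/- and 4 PiZ, was measured with the QuantSeq 3' mRNA kit in single reads of 75 bases, per the labels' protocols. Each deposited file holds unnormalized read counts, 1 for each gene, per the file headers. The submitters' processing notes name STAR, HTSeq and mm10; annotation, strand setting and duplicate handling are not stated. Symbols came from GENCODE M21, which held 52403 of the 52550 mouse IDs. Of the 56 genes, 22 overlap another annotated gene and 9 have their 3' end in one, so without strand their reads may be shared. Groups came from the sample titles.

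edgeR 4.0.16 in R 4.3.3 kept 8669 genes (filterByExpr, minimum count 10), scaled libraries by TMM and tested PiZ/Chop-/- against PiZ by robust quasi-likelihood without covariates; Benjamini-Hochberg adjustment ran over all tested genes (threshold 0.05). CPM uses TMM-scaled library sizes. Intervals cover the spread between libraries, and depth limits counting error only. The members, lists, motifs and alternatives were chosen with earlier results of these data known. Genes named with full values were those past the threshold, the 5 of lowest p in each direction and a fixed set of core enzymes; other genes have fold changes, and other lists give each gene past the threshold and the 2 of lowest p. Kmo, Sardh, Amdhd1, Ftcd, Gcsh, Gldc, Csad, Slc25a13 and Hgd have full values chosen after these were seen. Slc1a2, Cyp1a2 and Glul were also named after results were seen. Chi-square tests of counts within each group found no 2 libraries that agreed within sampling noise, and libraries of different groups were not compared. Alternatives were RLE, upper quartile and plain library size scaling, DESeq2 1.42.0, limma-voom (limma 3.58.1), 2 other filters, a fit that was not robust, omission of the 20 most abundant genes, a block of the replicate number, and omission of each library and of PiZ libraries 1 and 4 together. The test was also run on simulated counts.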

Additional observations from a re-analysis of the deposited data

Results flagged for a closer look

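In each gene and group the highest and the lowest of the 4 libraries were set against the other 3, by the gap to the nearest value over the whole range (Dixon's test at its 95% critical value). Of 112 groups 8 passed, where chance alone gives about 1 in 20. In PiZ/Chop-/- libraries, Asl was low in library 1 (166 CPM), Dmgdh low in library 3 (202 CPM), and Slc25a15 and Csad were high in library 2 (402 and 1131 CPM). In PiZ libraries, Slc25a13 was low in library 4 (139.5 CPM), Mat1a was high in library 1 (9750.1 CPM), and in library 3 Sds was high (30.2 CPM) and Bckdhb low (124 CPM).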

How the results depend on the processing

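The count of called genes among the 56 stayed at 0 under the other scalings, limma-voom, the filter of 5 CPM in 4 libraries, the fit that was not robust and the omission of the 20 most abundant genes. DESeq2 called 3 of the 56 (Uroc1 0.79, adjusted p = 0.00774; Gcsh 1.86, adjusted p = 0.0105; Hao1 0.99, adjusted p = 0.0498), 1 other amino acid gene (Hykk) and 209 of all genes, against 89 in edgeR. With no filter on low counts, edgeR called 5 (Uroc1, Hal, Ftcd and Hao1 higher, Gpt2 lower) and 2 other amino acid genes (Hykk and Aspg). It then called 357 of 19847 tested genes (1.8%). The cause was not tested. Leaving out 1 library gave 46 to 169 calls over all genes (0.514% to 1.88%), 0 to 2 among the 56 and 0 to 1 among the other amino acid genes. Leaving out PiZ libraries 1 and 4 together called 2 of the 56 (Amdhd1 and Gldc), where 1.22% of all tested genes were called.

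Replicate numbers did not pair the libraries: same-numbered libraries correlated at -0.05 to 0.05 in their deviations from the group means, and 1 of 4 numbers was its own best match. With a replicate block 1 of the 56 was called (Gcsh 1.62, adjusted p = 0.0268, edgeR), of 76 calls in all (0.877% of tested genes). The block put Asl at 0.095 and Arg1 at 0.043.

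Of 1064 log2 fold changes, one for each of the 56 genes under each alternative, 988 kept their direction and side of the threshold, 14 passed it and 62 changed sign; 31 genes never changed sign. Plain library size scaling gave Hgd -0.0769, Sdsl -0.0216, Aldh4a1 -0.0353, Amt -0.0329 and Bckdhb -0.011, upper quartile scaling gave Hgd -0.000534, and limma-voom gave Asl 0.0832 and Arg1 0.040. Without PiZ libraries 1 and 4 the signs turned for Cps1 0.30, Asl 0.18, Arg1 0.0631, Slc25a13 -0.21, Kynu 0.44, Tat 0.26, Fah 0.0324, Sds -0.0425, Sdsl -0.29, Gls2 0.18, Glud1 0.20, Agxt 0.22, Bhmt2 0.17, Bckdha -0.0527, Hibch 0.19 and Pccb -0.0595. Leaving out 1 library turned the sign, within these ranges, of Cps1 (-0.34 to 0.19), Ass1 (-0.40 to 0.0681), Asl (-0.22 to 0.37), Arg1 (-0.23 to 0.26), Slc25a13 (-0.19 to 0.23), Kynu (-0.35 to 0.0805), Tat (-0.43 to 0.0116), Hgd (-0.0593 to 0.0603), Fah (-0.29 to 0.0889), Sdsl (-0.17 to 0.33), Glud1 (-0.32 to 0.0679), Gpt (-0.22 to 0.0586), Aldh4a1 (-0.0108 to 0.14), Amt (-0.0747 to 0.21), Agxt (-0.40 to 0.0848), Cdo1 (-0.0414 to 0.25), Csad (-0.14 to 0.94), Bckdhb (-0.0208 to 0.21), Hibch (-0.30 to 0.19), Pcca (-0.0324 to 0.44) and Pccb (-0.0229 to 0.17).

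The depth of 1650260 to 3064385 counts a library leaves Sds, Sdsl, Mccc2, Hibch and Pcca thinly counted.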
